A study of Mus musculus with 8 samples.

Results

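Translation initiation factor genes were followed in lymphoid tissue inducer (LTi) cells, the innate lymphoid cells that seed lymph nodes and Peyer's patches in the embryo and persist in the gut. The set was every gene of the expression table whose symbol begins with Eif and a digit from 1 to 6, read without regard to case. Pseudogene symbols, the eIF2 kinases (Eif2ak1 to Eif2ak4) and the sex-linked eIF2 subunit genes Eif2s3x and Eif2s3y were left out. This gave 50 of 27179 genes, of which 47 reached 1 RPKM (reads scaled to transcript length and to library size) in at least 2 of the 8 libraries and were tested among 10541 genes. Of the other 3, Eif4e1b and Eif2c5 were listed at 0 in all 8 libraries and Eif5a2 stayed between 0 and 1.08 RPKM. Eif2c5 bears an older symbol series of Argonaute genes rather than that of an initiation factor, and contributed no value.

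The cells came from Peyer's patches (PP), lymphoid organs in the wall of the intestine, or from small intestinal lamina propria (LP) of C57BL/6 mice. The sort kept live cells that stained for CD127 and CCR6, and removed those with lineage markers, KLRG1, NK1.1 or NKp46. Mice were Tcf7+/+ (Ctrl) or Tcf7fl/fl with a Cre transgene (Tcf7-KO), whose activity is not limited to LTi cells. No other allele or treatment, and neither age nor sex, is given in the labels. Each of the 4 groups had 2 libraries made by Smart-seq2, which amplifies full-length cDNA by PCR from very little RNA. Whether a pair stems from different mice is not stated, so the p-values speak of the spread between libraries alone, which may be technical.

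Initiation brings the small ribosomal subunit to the start codon of an mRNA. eIF2 delivers the initiator tRNA, and eIF2B recharges eIF2 with GTP. The multi-subunit eIF3 holds the small subunit together with eIF1, eIF1A and eIF5, while eIF4E, eIF4G and the helicase eIF4A bind the cap and open the leader of the mRNA. The 4E-BPs keep eIF4E from eIF4G when the kinase mTOR is inactive. Phosphorylation of eIF2 by stress kinases lowers initiation in general and raises translation of Atf4, and lymphocytes are known to increase their translation machinery when activated.

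Library quality bears on every value below. Between 6365 and 8433 genes reached 1 RPKM in a library. The share of mitochondrially encoded RNA in the summed RPKM was 13.4% and 13.6% in the Tcf7-KO PP libraries against 3.06% to 5.06% in the other 6. All 12 LTi markers looked up were at 1 RPKM or more in all 8 libraries, and their summed level was 6117 to 6897 RPKM in PP against 2619.8 to 3199 in LP. Of the genes for the surface proteins excluded by the gate, Ncr1 was at 0 in all 8 libraries, Klrg1 reached 1 RPKM in 1 and Klrb1c in 2. Tcf7, the targeted gene, was at 243 and 85.4 RPKM in Ctrl PP, 355 and 337 in Tcf7-KO PP, 229 and 246 in Ctrl LP, and 237 and 215 in Tcf7-KO LP. It was therefore not lower in the libraries labelled Tcf7-KO, the table does not say which exons its reads came from, and genotype below means the label.

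Initiation factor genes were among the better expressed genes. Their summed level was 3007 to 4146 RPKM, or 0.539% to 0.730% of all RPKM of a library. The median of their mean levels was 38.0 RPKM, against 12 over all genes tested. At 1 RPKM or more in all 8 libraries stood 30 of the 47, or 63.8%, against 29% of all genes tested. RPKM is per length, so levels can be compared between genes, with the limit that reads of near-identical copies may be assigned to either or to neither.

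**Figure D1:**
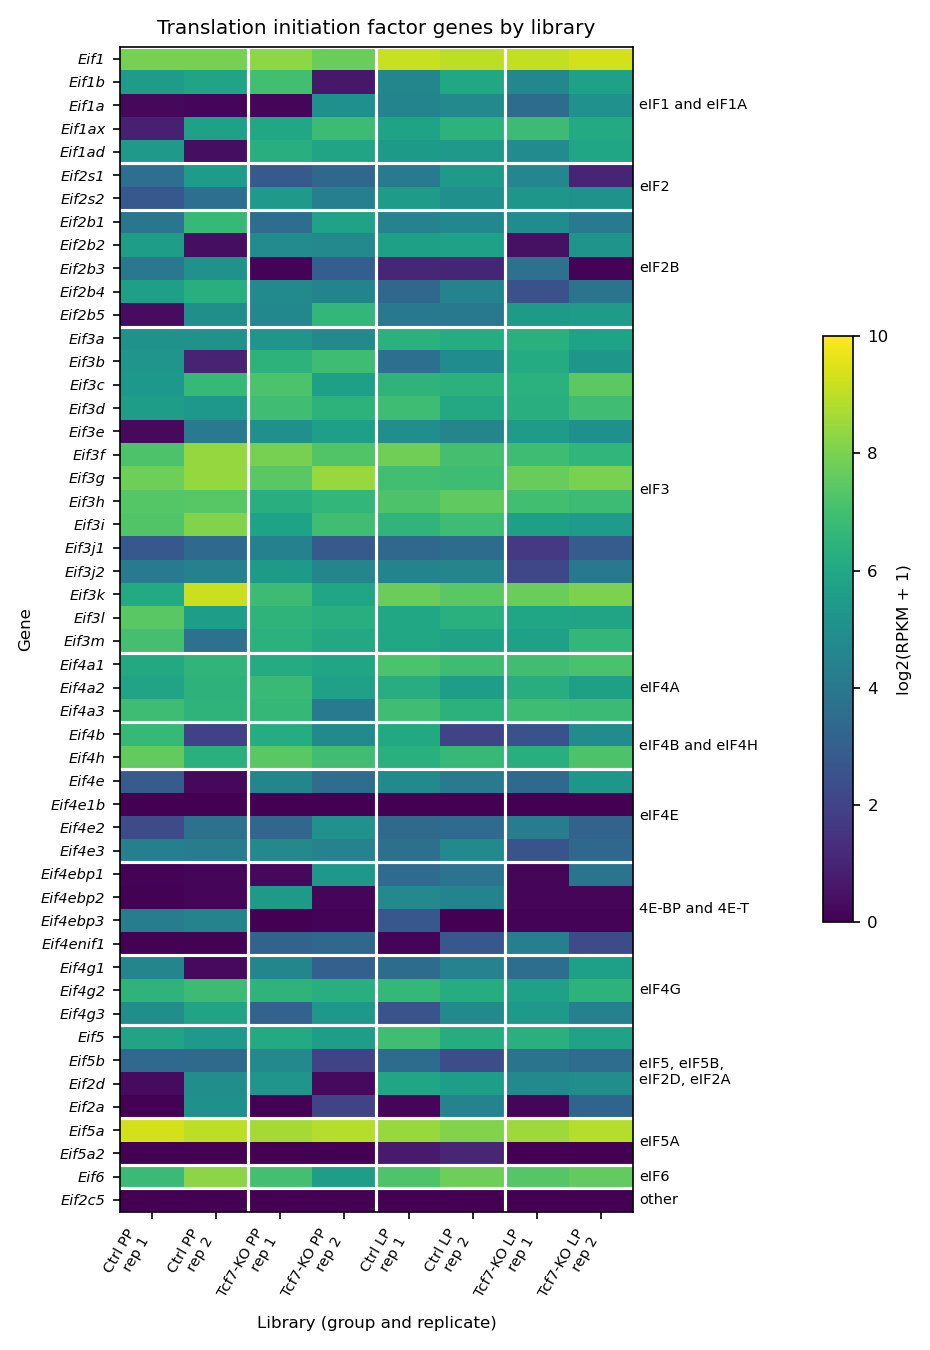
Heat map of log2(RPKM + 1) for the 50 initiation factor genes (rows, by factor complex) in the 8 libraries (columns, by group and replicate). Eif5a, Eif1 and several eIF3 subunits are bright in every library, while the 4E-BP genes, Eif2a and Eif4enif1 alternate between dark and bright.

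The highest level belonged to Eif5a, which encodes eIF5A, the hypusine-bearing factor that helps ribosomes through difficult peptide bonds. It was at 654 and 506 RPKM in Ctrl PP, 404 and 466 in Tcf7-KO PP, 352 and 275 in Ctrl LP, and 371 and 477 in Tcf7-KO LP. Both Ctrl PP libraries thus stood above the other 6. Next came Eif1, with 411 RPKM on average, and the eIF3 subunit genes Eif3g, Eif3k and Eif3f with 222, 210.3 and 182. The mean levels of Eif5a (438 RPKM) and Eif1 were closer to each other than the range of either over libraries.

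Eif1 encodes eIF1, which sits near the ribosomal P site and makes start codon choice strict. Its gene lies on mouse chromosome 11 (chr11:100319949-100322099, GRCm38.p6). The first 60 coding bases are printed for Eif1 and its paralogue Eif1b, because the 2 had to be told apart by the read counting; capitals mark the 5 bases that differ.
Eif1: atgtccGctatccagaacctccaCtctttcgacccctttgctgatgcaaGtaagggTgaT
Eif1b: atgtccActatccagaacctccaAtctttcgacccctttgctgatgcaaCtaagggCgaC
Over all 339 coding bases the 2 genes were 81.1% identical with a longest shared run of 25 bases, so no aligned coding stretch of 50 bases is the same in both. A closer copy exists: 94.5% of the 290 windows of 50 bases in the Eif1 coding sequence also occur in other annotated transcripts, mostly in that of Gm10157. That gene has no row of its own in the table. The pseudogene Eif1-ps3 had 0.134 to 1.11 RPKM.

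Eif1 was the only one of the 47 tested initiation factor genes to pass between the tissues. Its level was 246 and 246 RPKM in Ctrl PP, 317 and 217 in Tcf7-KO PP, 574 and 506 in Ctrl LP, and 539 and 640.0 in Tcf7-KO LP. All 4 LP libraries lay above all 4 PP libraries, with means of 565 ± 57.2 and 256 ± 42.5 RPKM (SD, n = 4). Over both genotypes the log2 fold change of RPKM + 1 was 1.15 ± 0.21 (SE), a fold of 2.21 (limma, adjusted p = 0.0135). Of all genes tested, 4.33% passed this comparison, 2.30% as higher and 2.03% as lower in LP. At an unadjusted p under 0.05 were 5 of the 47 (10.6%), against 19.4% of all genes.

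The difference in Eif1 was of like size in each genotype, without passing in either. It was 1.13 ± 0.27 in Ctrl (limma, adjusted p = 0.0932) and 1.16 ± 0.27 in Tcf7-KO (limma, adjusted p = 0.0958). The call over both genotypes was lost without Ctrl LP replicate 1 (1.11, adjusted p = 0.0614), without Ctrl LP replicate 2 (1.19, adjusted p = 0.0503) and when the spread was fitted without a trend on the level (adjusted p = 0.255). It held under 14 of 17 alternatives, whose adjusted p ran from 0.00774 to 0.255 and whose change ran from 1.03 to 1.26.

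Markers of other cells moved with the same comparison. The summed level of 8 B and plasma cell markers was 15124 to 24719.7 RPKM in LP against 4851 to 11977 in PP, nearly all of it from Igkc and Jchain. The B cell gene Ms4a1 was under 1 RPKM in all 4 LP libraries, and Pax5 was at 0 in all 8. The 7 T cell markers summed to 173 to 305 RPKM in LP and 447 to 802 in PP, mostly from Trbc2 and Trbc1. Cd3e, Cd3d, Cd3g and Trac overlapped between the tissues, and Cd8a reached 1 RPKM in 2 libraries, both from LP. Epithelial (213 to 455 against 150.1 to 774) and myeloid sums (0.299 to 99.9 against 0.754 to 65.3) overlapped between the tissues. The stromal and endothelial sum (24 to 54.3 against 40.6 to 161) overlapped too. Nearly all of it was Pecam1, the only 1 of those 6 genes to reach 1 RPKM in a library. The part of these cells in the Eif1 level was not tested. In bulk libraries such as these, fewer cells of a type and less RNA per cell cannot be told apart.

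A further 3 genes separated the tissues in every library without passing. Counting Eif1, 3 of 47 (6.38%) were higher in all LP than in all PP libraries, and 6.54% of all genes tested were. In the other direction it was 1 of 47 (2.13%), against 7.05%. Both shares lie at or under those of genes at large.

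Eif3a encodes the largest eIF3 subunit, the scaffold of the complex. It was at 33.8 and 34.2 RPKM in Ctrl PP, 36.4 and 26.3 in Tcf7-KO PP, 81.7 and 71.8 in Ctrl LP, and 79.7 and 55.0 in Tcf7-KO LP. The LP mean was 72.0 ± 12.2 RPKM and the PP mean 32.7 ± 4.41 (SD, n = 4), with a log2 fold change of 1.11 ± 0.42 (limma, adjusted p = 0.18). None of its coding windows occurs in another annotated transcript.

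Eif4a1 encodes eIF4A1, the helicase of the cap-binding complex. It stood at 66.1 and 93.4 RPKM in Ctrl PP, 70.3 and 58.2 in Tcf7-KO PP, 142 and 117 in Ctrl LP, and 121 and 139 in Tcf7-KO LP. The lowest LP library was above the highest PP library, and the log2 fold change was 0.86 ± 0.33 (limma, adjusted p = 0.191). Of its coding windows 96.3% recur in other transcripts, mostly in the pseudogene Eif4a-ps4, so its level depends on how such reads were assigned. Its paralogue Eif4a2 (78.0% identical over the coding sequence) ranged from 48 to 108 RPKM and Eif4a3, the helicase of the exon junction complex, from 17.1 to 119.7, both with overlap between the tissues.

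Eif2b4, the gene of the delta subunit of the exchange factor eIF2B, was the one that was lower in LP. Its values were 49.9 and 78.0 RPKM in Ctrl PP, 26.1 and 22.0 in Tcf7-KO PP, 8.77 and 21.1 in Ctrl LP, and 4.62 and 13.3 in Tcf7-KO LP. The gap between the tissues was narrow, 22.0 to 21.1 RPKM, and the log2 fold change was -1.79 ± 0.64 (limma, adjusted p = 0.156).

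**Figure D2:**
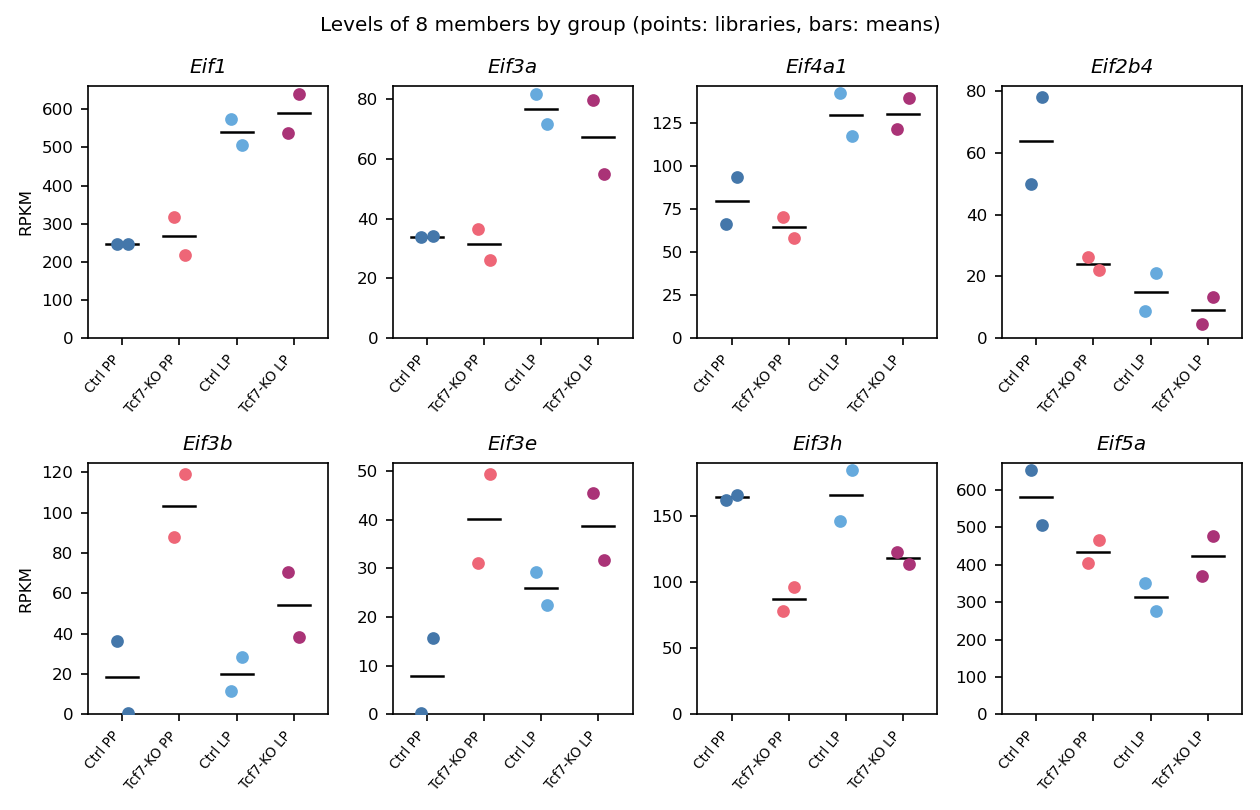
RPKM of 8 initiation factor genes by group, with a point for each library and a bar at the group mean. Eif1, Eif3a and Eif4a1 are higher and Eif2b4 lower in every LP library than in every PP library, and Eif3b, Eif3e and Eif3h separate the genotypes within both tissues.

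The promoters of the 3 genes that were higher in all LP libraries are shown because their levels moved in the same direction. Each line is the 250 bases before the annotated start in RefSeq (GRCm38.p6), 5′ to 3′ on the gene's strand, at chr11:100319699-100319948 (plus strand), chr19:60790694-60790943 (minus) and chr11:69672424-69672673 (minus). Capitals mark matches, on either strand, to the E-box CACGTG, the CCAAT box CCAAT, the C/EBP-ATF response element core TGATGNAA, the ETS core CCGGAAG or the cyclic AMP response element TGACGTCA.
Eif1: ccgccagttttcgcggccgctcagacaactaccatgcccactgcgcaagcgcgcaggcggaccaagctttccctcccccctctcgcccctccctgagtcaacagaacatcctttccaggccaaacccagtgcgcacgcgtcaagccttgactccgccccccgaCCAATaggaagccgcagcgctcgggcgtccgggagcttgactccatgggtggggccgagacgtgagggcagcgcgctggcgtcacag
Eif3a: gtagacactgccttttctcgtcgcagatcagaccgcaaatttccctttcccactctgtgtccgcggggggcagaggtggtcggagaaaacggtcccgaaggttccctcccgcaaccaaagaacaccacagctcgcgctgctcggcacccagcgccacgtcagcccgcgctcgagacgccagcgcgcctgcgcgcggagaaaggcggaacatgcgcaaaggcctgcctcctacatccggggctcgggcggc
Eif4a1: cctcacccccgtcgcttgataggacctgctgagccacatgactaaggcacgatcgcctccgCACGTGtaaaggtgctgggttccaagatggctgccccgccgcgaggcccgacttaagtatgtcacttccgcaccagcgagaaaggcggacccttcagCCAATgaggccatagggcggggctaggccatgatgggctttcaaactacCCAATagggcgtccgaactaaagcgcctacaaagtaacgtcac
Eif4a1 holds 1 E-box and 2 CCAAT boxes, Eif1 holds 1 CCAAT box, and none of these letters occur in the Eif3a window.

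Over the 50 promoters found for 38 of the 50 initiation factor genes, the E-box occurred in 22.0%, against 6.02% of 32817 mouse promoters of the same length and 8.51% of those of genes tested. Those promoters belonged to Eif1b, Eif3f, Eif3k, Eif4a1, Eif4e, Eif4g1, Eif4h, Eif5a and Eif5a2. The ETS core occurred in 24%, against 6.90% of all promoters and 14.9% of those of genes tested. The CCAAT box was found in 24%, against 33.8% of all and 35% of those of genes tested. The C/EBP-ATF core and the cyclic AMP element were in none, against 3.45% and 1.55% of all and 1.92% and 2.82% of those of genes tested. Median GC content was 62.4% in these promoters and 52.4% in all, and its part in the motif shares was not tested. A match is a description of letters, not a bound site.

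Within Ctrl cells 0 of 47 initiation factor genes passed between the tissues (limma), where 2.13% of all genes did, and 9 had an unadjusted p under 0.05 (19.1% against 17%). In Tcf7-KO cells 0 passed (2.0% of all genes), with 2 under that unadjusted limit against 14.7% of all genes. The median log2 fold change of the 47 was 0.31 in Ctrl, 0.09 over all genes, and -0.04 in Tcf7-KO, -0.29 over all genes. These medians change with the scaling of the libraries: median-of-ratios factors, which differ from the total used for RPKM, gave -0.01 in Ctrl and 0.41 in Tcf7-KO, with -0.03 and 0.01 over all genes.

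In Ctrl cells the genes without overlap and with the smallest p were, besides Eif1, Eif2s2 and Eif1a (higher in LP) and Eif5a, Eif3g and Eif4ebp3 (lower). Eif2s2, the beta subunit of eIF2, was at 5.76 and 11.5 RPKM in PP and 44.3 and 31.7 in LP of Ctrl cells, and at 41.5 and 18.8 against 38.3 and 34.2 in Tcf7-KO cells. The 2 Ctrl PP libraries were thus the lowest of the 8. The log2 fold change between tissues in Ctrl was 2.07 ± 0.73 (limma, adjusted p = 0.216). Of the coding windows of Eif2s2, 73.4% recur in other transcripts, mostly in that of Gm9892. Eif2s1, the alpha subunit that stress kinases phosphorylate, gave 11.7, 43.4, 6.17 and 9.33 RPKM in PP and 16.2, 41.6, 24 and 1.07 in LP, with full overlap.

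Eif1a, which encodes a form of the eIF1A that binds the ribosomal A site, was under 1 RPKM in both Ctrl PP libraries (0.160 and 0.0861) and in the first of the Tcf7-KO PP libraries (0.108). It was at 31.3 RPKM in the other, at 21.7 and 25.1 in Ctrl LP, and at 10.7 and 32 in Tcf7-KO LP. Its log2 fold change between tissues in Ctrl, 4.44 ± 1.65, did not pass (limma, adjusted p = 0.234). The X-linked copy Eif1ax, 85.6% identical over the aligned coding bases, was between 52.2 and 116 RPKM in 7 libraries and at 0.831 in Ctrl PP replicate 1. Eif1b ranged from 0.569 to 125 RPKM and Eif1ad, which encodes a nuclear protein with an eIF1A-like domain, from 0.310 to 75.7.

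Eif5a was lower in LP than in PP in Ctrl cells, by -0.89 ± 0.27 (limma, adjusted p = 0.158), with the library values given above. In Tcf7-KO cells its change was -0.04. Eif3g, an eIF3 subunit that binds RNA, was at 220.0 and 338 RPKM in Ctrl PP, 173 and 349.7 in Tcf7-KO PP, 125 and 117 in Ctrl LP, and 201 and 250.1 in Tcf7-KO LP. The 2 Ctrl LP libraries were the lowest of the 8, and the change in Ctrl was -1.16 ± 0.42 (limma, adjusted p = 0.225).

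eIF3 had 14 genes in the set, and its summed level was between 1166 and 1986 RPKM in a library. The subunit genes did not share a level although they encode parts of a single complex: mean RPKM ran from 8.80 for Eif3j1 to 222 for Eif3g, a ratio of 25.2. Eif3j1 and Eif3j2 are identical over 783 coding bases, so the split of reads between them (8.80 and 20.5 RPKM on average) is uncertain. Eif3j2 was listed at 15.8 and 19.9 RPKM in Ctrl PP, 43.0 and 22.5 in Tcf7-KO PP, 21.7 and 22.7 in Ctrl LP, and 3.33 and 15.5 in Tcf7-KO LP, so the 2 genotypes lay in opposite order in the 2 tissues. Eif3k, a subunit outside the conserved core, had 1 library far from the rest, at 583 RPKM in Ctrl PP replicate 2 and from 60.1 to 261 in the other 7. Without that library Eif3k also passed as higher in LP over both genotypes, beside Eif1. The subunit genes not described elsewhere reached at least 10 RPKM in every library: Eif3c ranged from 39.5 to 179, Eif3d from 39.3 to 121, Eif3f from 94.7 to 344, Eif3l from 46.1 to 171 and Eif3m from 12.6 to 132 RPKM. Eif3d, the subunit that can itself bind the cap of some mRNAs, shares 43.3% of its exon bases with a gene on the opposite strand.

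Between genotypes in PP, 0 of 47 initiation factor genes passed (limma), where 0.360% of all genes did. At an unadjusted p under 0.05 were 7 (14.9%), against 11.4% of all genes. The 2 libraries of the groups did not overlap for 12 genes that were higher in Tcf7-KO (25.5% against 22.7%) and 8 that were lower (17% against 14.8%). The median log2 fold change was 0.11, beside 0.16 over all genes, and -0.35, beside -0.07, with median-of-ratios scaling.

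Those nearest to passing in PP were 4E-BP, 4E-T and eIF3 genes. Eif4ebp3, which encodes the eIF4E-binding repressor 4E-BP3, was at 17.3 and 21.5 RPKM in Ctrl and 0.0225 and 0.0649 in Tcf7-KO. The change was -4.28 ± 1.08 (limma, adjusted p = 0.179), the smallest of the 47 in this comparison. In LP it was at 5.51 and 0.0222 RPKM in Ctrl and 0.0620 and 0.0663 in Tcf7-KO, so a level above 1 RPKM was seen in 3 Ctrl libraries and in no Tcf7-KO library. Another annotated gene on the same strand overlaps 67.3% of its exon bases, where reads of the 2 cannot be told apart.

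Eif4enif1, the gene of the eIF4E transporter 4E-T, showed the opposite order in PP. It was at 0.0364 and 0.0533 RPKM in Ctrl and 8.06 and 8.98 in Tcf7-KO, a change of 3.19 ± 1.29 (limma, adjusted p = 0.415). In LP it was at 0.0738 and 5.53 in Ctrl and 19 and 3.98 in Tcf7-KO, where the groups overlapped.

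Eif3b, the subunit with the beta-propeller that contacts the small ribosomal subunit, was at 36.4 and 0.933 RPKM in Ctrl PP, 88.0 and 119 in Tcf7-KO PP, 11.5 and 28.4 in Ctrl LP, and 70.8 and 38.2 in Tcf7-KO LP. Every Tcf7-KO library was above every Ctrl library, and the change was 3.60 ± 1.34 in PP and 1.47 ± 1.34 in LP. Eif3e, also a core subunit, was at 0.200 and 15.8 RPKM in Ctrl PP, 31.1 and 49.3 in Tcf7-KO PP, 29.3 and 22.5 in Ctrl LP, and 45.5 and 31.8 in Tcf7-KO LP. It had the same order, with 3.16 ± 1.23 in PP.

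Eif3h, the gene of another eIF3 subunit, had the reverse order. It was at 162 and 166 RPKM in Ctrl PP, 77.9 and 96.3 in Tcf7-KO PP, 146 and 185 in Ctrl LP, and 123 and 114 in Tcf7-KO LP, and its change in PP was -0.92 ± 0.35. All 3 missed the threshold over both tissues: 2.54 ± 0.92 for Eif3b, 1.85 ± 0.92 for Eif3e and -0.69 ± 0.30 for Eif3h (limma, adjusted p = 0.709, 0.74 and 0.726). In Ctrl PP, Eif3b and Eif3e each had 1 library under 1 RPKM, a different one for each. Of all genes tested, 1.66% were higher and 1.24% lower in every Tcf7-KO library, against 2 and 1 of the 47 here (4.26% and 2.13%).

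Over both tissues 0 of 47 initiation factor genes passed between genotypes (limma), beside 0.00949% of all genes, and 6 were at an unadjusted p under 0.05 (12.8% against 6.81%). Eif3i, a beta-propeller subunit, was lower in Tcf7-KO within each tissue but overlapped across them: it was at 156 and 275 RPKM in Ctrl PP, 54.2 and 122 in Tcf7-KO PP, 91.4 and 119 in Ctrl LP, and 50.7 and 45.7 in Tcf7-KO LP. The share of mitochondrially encoded RNA given above also differed between the genotypes in PP, and its part in the PP values was not tested.

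Between genotypes in LP, 0 of 47 passed (limma), beside 0.0285% of all genes, and 1 was at an unadjusted p under 0.05 against 5.27% of all genes. The groups did not overlap for 7 genes that were higher in Tcf7-KO (14.9% against 15.3%) and 10 that were lower (21.3% against 20.3%). The gene under the unadjusted limit was Eif4ebp2, encoding 4E-BP2. It was at 25.3 and 21.8 RPKM in Ctrl and 0.0932 and 0.114 in Tcf7-KO, a change of -4.47 ± 1.70 (limma, adjusted p = 0.849). In PP it was at 0.0288 and 0.0883 in Ctrl and 43.0 and 0.111 in Tcf7-KO, so 3 libraries of the 8 held nearly all of its signal.

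The difference of the genotype effects between LP and PP passed for 0 of 47 genes (limma), beside 0.0285% of all genes. The smallest adjusted p of the 47 belonged to Eif4ebp2 (-7.20 ± 2.40, limma, adjusted p = 0.424), the 1 gene at an unadjusted p under 0.05, against 8.75% of all genes.

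**Figure D3:**
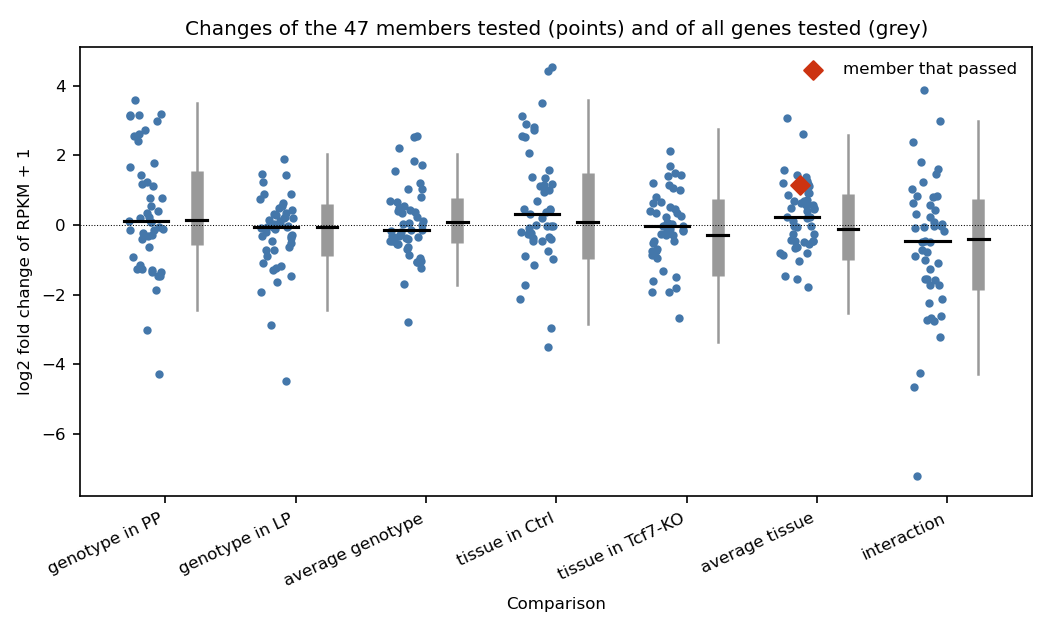
log2 fold changes of RPKM + 1 for the 47 initiation factor genes tested (points, black line at the median) beside all 10541 genes tested (grey: thick bar, quartiles; thin line, 5th to 95th percentile; black line, median) in 7 comparisons. The red diamond is Eif1, the single gene of the set that passed, in the average tissue comparison.

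No 4E-BP gene passed in any comparison. Eif4ebp1, the best known mTOR target of the family, was at 0.0785 and 0.138 RPKM in Ctrl PP, 0.158 and 38.8 in Tcf7-KO PP, 10.3 and 13.2 in Ctrl LP, and 0.121 and 13.7 in Tcf7-KO LP. Both replicate pairs from Tcf7-KO cells thus held a library near 0 and a library above 10 RPKM. The sum of Eif4ebp1, Eif4ebp2 and Eif4ebp3 was 17.4 and 21.7 RPKM in Ctrl PP, 43.2 and 39.0 in Tcf7-KO PP, 41.1 and 35.0 in Ctrl LP, and 0.276 and 13.9 in Tcf7-KO LP. In 5 of the libraries a single 4E-BP gene was at 1 RPKM or more.

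Such all-or-none replicates were measured over the whole set. A pair was called split where a gene was under 1 RPKM in one replicate and at 10 RPKM or more in the other. This held for 9 of 47 initiation factor genes in Ctrl PP (19.1%, against 22.8% of all genes tested), 5 in Tcf7-KO PP (10.6% against 14.9%), 1 in Ctrl LP (2.13% against 7.84%) and 3 in Tcf7-KO LP (6.38% against 12.4%). In Ctrl PP the split genes were Eif1ad, Eif1ax, Eif2a, Eif2b2, Eif2b5, Eif2d, Eif3b, Eif3e and Eif4g1.

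Of the 20 genes that averaged 50 RPKM or more, 1 was split in any group (5%, against 11.2% of all genes at that level) and the median coefficient of variation over the 8 libraries was 0.41. Of the 21 with a mean of 10 to 50 RPKM, 10 were split (47.6% against 53.5%), with a median coefficient of 0.75. Of the 6 under 10 RPKM, 3 were split (50% against 44.5%), with 1.35. The levels are means of the same 8 libraries, which a split itself lowers, so they are not independent of it. Number of input cells per library is not given in the labels.

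**Figure D4:**
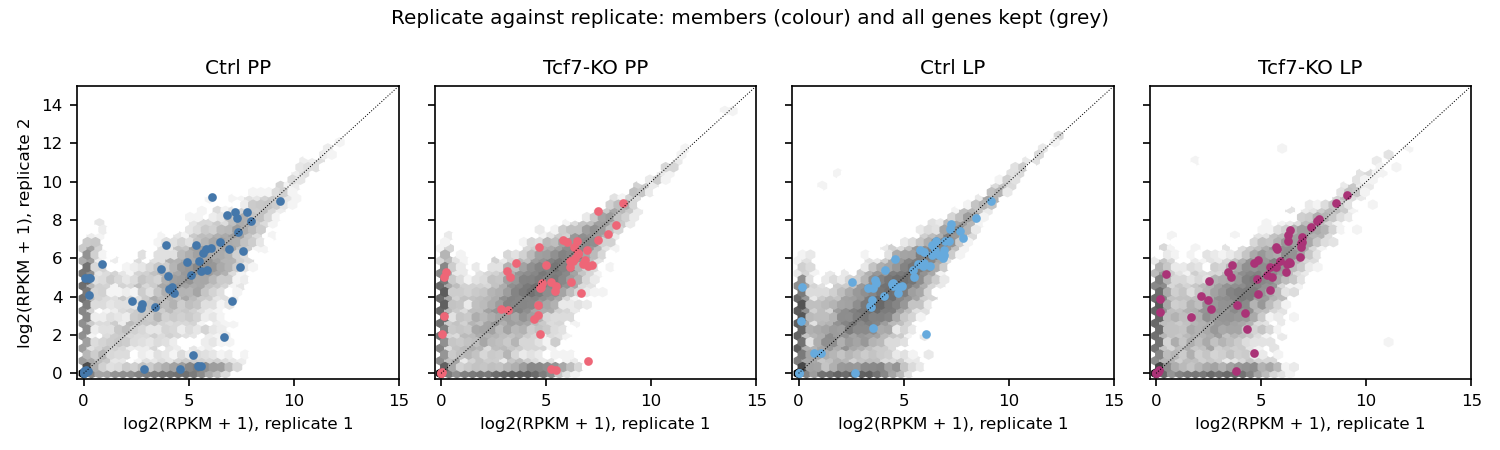
Replicate 2 against replicate 1 in log2(RPKM + 1) for each group, with the initiation factor genes in colour, all genes tested as a grey density and a dotted line of equality. Genes along the axes are near 0 in one replicate only, and 9 initiation factor genes in Ctrl PP against 1 in Ctrl LP meet the limits of 1 and 10 RPKM for a split pair.

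Eif4e, the cap-binding protein, was at 6.31 and 0.156 RPKM in Ctrl PP, 23.1 and 11.0 in Tcf7-KO PP, 25.6 and 17 in Ctrl LP, and 9.55 and 38.0 in Tcf7-KO LP. Eif4e3, an atypical family member, had the highest mean of the family at 16.8 RPKM. It was at 18.7 and 17.2 RPKM in Ctrl PP, 24.9 and 21.3 in Tcf7-KO PP, 12 and 25.7 in Ctrl LP, and 5.03 and 9.41 in Tcf7-KO LP, with the 2 Tcf7-KO LP libraries the lowest of the 8. Eif4g1, the scaffold that joins eIF4E to eIF4A, gave 22.7 and 0.183, 23.2 and 7.37, 10.7 and 20.6, and 11.3 and 49 RPKM in the same order of groups. Ctrl PP replicate 2 was under 1 RPKM for both Eif4e and Eif4g1, and the tissues overlapped for both. Other transcripts hold 58.3% of the coding windows of Eif4e (mostly Gm7327) and 46.0% of those of Eif4e3 (mostly Gm20696). Eif4e2, which binds the cap to repress translation, ranged from 3.91 to 31.9 RPKM, and Eif4g3, a relative of Eif4g1, from 4.90 to 56.0.

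Eif4g2, encoding the scaffold DAP5 that lacks the eIF4E site, was the steadiest gene of the set. It was at 89.5 and 116 RPKM in Ctrl PP, 89.3 and 76.1 in Tcf7-KO PP, 100.1 and 71.9 in Ctrl LP, and 52.1 and 87.5 in Tcf7-KO LP, a coefficient of variation of 0.225. Eif4h, a helper of the helicase, was at 190.2 and 81.2 RPKM in Ctrl PP, 175 and 122 in Tcf7-KO PP, 79.7 and 103 in Ctrl LP, and 75.6 and 146 in Tcf7-KO LP. The tissues overlapped, as did the genotypes within each tissue. Its relative Eif4b ranged from 2.78 to 102.

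The other factors showed no separation of groups across both tissues or genotypes. Eif5, which makes eIF2 hydrolyse its GTP at the start codon, was at 56.9 and 41.0 RPKM in Ctrl PP, 68.6 and 46.1 in Tcf7-KO PP, 122 and 72.2 in Ctrl LP, and 80.7 and 53.6 in Tcf7-KO LP. Eif6, which keeps the large ribosomal subunit from joining early, was at 111 and 309, 127 and 46.8, 152 and 219, and 165 and 195 RPKM in the same order of groups. Its lowest and highest values both came from PP. Eif5b, the subunit-joining GTPase, stayed between 3.10 and 24.8 RPKM, and Eif2a, an alternative carrier of initiator tRNA, lay between 0.0335 and 31.0.

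The eIF2B subunits differed in pattern among themselves. Eif2b1, the alpha subunit and the highest of the 5 on average (33.9 RPKM), was at 14.2 and 102 RPKM in Ctrl PP, 10.9 and 53.5 in Tcf7-KO PP, 21.0 and 24.5 in Ctrl LP, and 28.2 and 16.4 in Tcf7-KO LP. Eif2b5, the catalytic epsilon subunit, was at 0.251 and 30.5, 24.4 and 96.6, 15.6 and 15.3, and 42.3 and 45.5 RPKM in that order. The PP replicates were further apart than those of LP for both genes. The beta and gamma subunit genes Eif2b2 and Eif2b3 ranged from 0.301 to 51.8 and from 0.0696 to 33.3 RPKM.

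Other genes of translation and its control were taken as a list of 36, of which 35 were tested. Over both genotypes 3 were higher and 1 was lower in LP (limma), with 2.30% and 2.03% of all genes passing in those directions. Within Ctrl and within Tcf7-KO, Ppp1r15a alone passed, and none passed between genotypes or for the difference of genotype effects. The list was chosen with earlier results of these data known, so its counts beside those shares are no test of the list.

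Ppp1r15a, which directs a phosphatase to eIF2 and so reverses the stress kinases, was at 46.2 and 61.3 RPKM in Ctrl PP, 104 and 132 in Tcf7-KO PP, 346 and 377 in Ctrl LP, and 399 and 427 in Tcf7-KO LP. All LP libraries were above all PP libraries, with a log2 fold change of 2.28 ± 0.30 (limma, adjusted p = 0.00219). This call was lost under 1 of 17 alternatives (without trend, adjusted p = 0.0597). It passed in Ctrl (2.74 ± 0.32, limma, adjusted p = 0.0117) and in Tcf7-KO (1.81 ± 0.32, limma, adjusted p = 0.0432). The last of these calls was lost under 12 of 18 alternatives, among them without any single library of LP or of Tcf7-KO PP (adjusted p up to 0.17) and with a replicate block (1.81 ± 0.33, adjusted p = 0.0869). The call in Ctrl was lost under 4 of 18: without Ctrl LP replicate 1 or 2 (adjusted p = 0.109 and 0.114), without trend (0.0799) and with only the groups compared in the fit (0.16).

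Atf4, the transcription factor of the integrated stress response, was at 35.5 and 93.9 RPKM in Ctrl PP, 8.83 and 80.5 in Tcf7-KO PP, 380.0 and 416 in Ctrl LP, and 231 and 270.5 in Tcf7-KO LP. Its change over both genotypes was 2.95 ± 0.60 (limma, adjusted p = 0.0216). Ddit3, a target of Atf4 encoding CHOP, was at 56.1 and 0.904, 1.04 and 36.3, 213 and 247, and 335 and 182 RPKM in the same order, with 4.65 ± 1.10 (limma, adjusted p = 0.0412). Both genes separated the tissues in all 8 libraries. Leaving out each library in turn gave changes of 2.30 to 3.53 for Atf4 and 3.70 to 5.67 for Ddit3, and several omissions cost the call. That of Atf4 was lost without either LP library of either genotype or without Ctrl PP replicate 1 (adjusted p 0.0545 to 0.0745). That of Ddit3 was lost without any LP library, Ctrl PP replicate 2 or Tcf7-KO PP replicate 1 (0.0733 to 0.117), and with a replicate block (4.65 ± 1.13, adjusted p = 0.0549). Over 17 alternatives Atf4 passed under 10 and Ddit3 under 7, and without a filter on low values their adjusted p was 0.228 and 0.372.

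Mcts1, which encodes a partner of Denr in ribosome recycling and reinitiation, was lower in LP. It was at 109.7 and 91.9 RPKM in Ctrl PP, 177 and 48.5 in Tcf7-KO PP, 6.14 and 9.64 in Ctrl LP, and 14.2 and 11.1 in Tcf7-KO LP. The change was -3.17 ± 0.58 (limma, adjusted p = 0.0125), and the call was lost without Tcf7-KO PP replicate 1 (-2.87, adjusted p = 0.0596) and without a filter (adjusted p = 0.0512). Eif2d, related to the Mcts1 and Denr pair and a member of the set, was split in both PP groups (0.213 and 30.1 RPKM in Ctrl, 36.3 and 0.185 in Tcf7-KO) and at 59.0, 47.2, 26.5 and 29.5 RPKM in LP.

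Among the abundant elongation and mRNA-binding genes, no tissue difference passed. Eef1a1, which carries aminoacyl-tRNA to the ribosome, was at 1075 and 1072 RPKM in Ctrl PP, 756 and 775 in Tcf7-KO PP, 1059 and 975 in Ctrl LP, and 751 and 750.1 in Tcf7-KO LP. It was lower in every Tcf7-KO library, by -0.46 ± 0.14 over both tissues, without passing (limma, adjusted p = 0.709). Eef2, the translocase, ranged from 149.7 to 289 RPKM, Pabpc1, the poly(A)-binding protein, from 22.3 to 80.2, and Pdcd4, an inhibitor of eIF4A, from 19.6 to 54.3, each with overlap of the tissues.

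**Figure D5:**
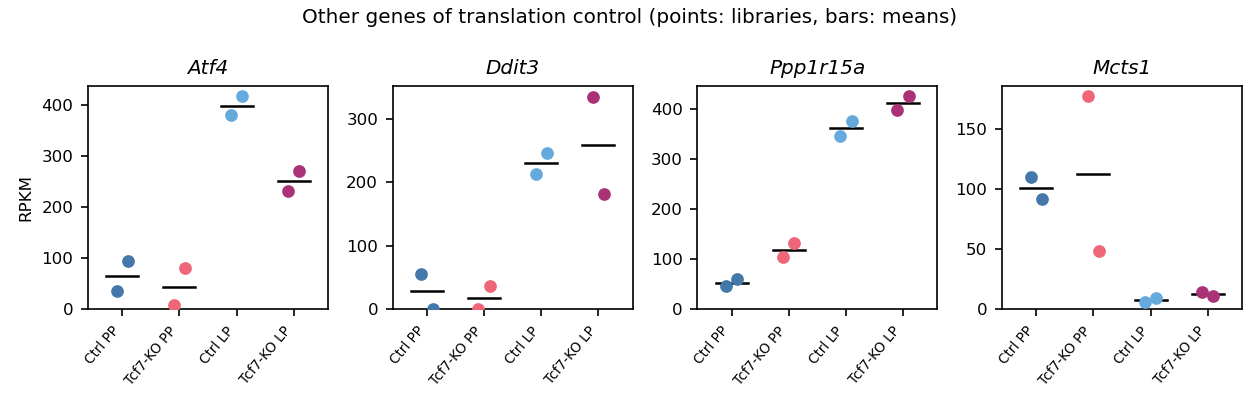
RPKM of Atf4, Ddit3, Ppp1r15a and Mcts1 by group, with a point for each library and a bar at the group mean. The first 3 are higher and Mcts1 is lower in all 4 LP libraries than in all 4 PP libraries.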

How the data were processed

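The authors deposited one table of log2(RPKM + 1) per gene and library, with 0.0001 written in place of 0, made with featureCounts of Subread on mm10 per the submitters' processing notes. For aligner, versions, annotation and strandedness, nothing is given in the sources used. The log base was inferred from 46 values of 25 low genes, each scaled by depth and divided by the smallest value of its gene. After undoing log2, 69.6% of these ratios were whole numbers within 0.1, against at most 26.1% under other readings. The genes and depths had been chosen on the log2 reading, which favours it. No counts were in the table. Taking the smallest value of low genes as 1 read put the median depth at 32.3 to 37.4 M reads per library. Quartiles over these genes ran from 24.5 to 43.4 M across the libraries. The gene lengths used came from reference exons and may differ from those of the submitters, so the estimate is rough.

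Symbols and positions came from RefSeq (GRCm38.p6) through 25275 matched Entrez identifiers, and shared sequence from the reference transcripts. The file writes most symbols in capitals, so the rule was read without case (3 rows would match otherwise, and 57 did before 7 exclusions). The members and lists were chosen with earlier results of these data known.

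Genes at 1 RPKM or more in 2 of 8 libraries were fitted on log2(RPKM + 1) with limma 3.58.1 in R 4.3.3 (trend, two-sided, Benjamini-Hochberg over 10541 genes, threshold 0.05). Such fold changes understate the change of low genes. A model of 4 group means gave genotype, tissue and interaction effects, and an additive model gave average effects, taking all 8 libraries as independent. Errors are SEs for changes and SDs for levels. Values were written out for the highest gene of each complex, every passing gene, the 3 non-overlapping genes with the smallest p per direction and comparison, and 10 chosen factors. The rest are given by range, except Eif1ax, Eif3k, Eif3j1 and Eif2d, whose details were chosen after their values were seen. On simulated data for the average tissue effect over 10541 genes, 6%, 22%, 62% and 84% of 50 genes changed by 1, 2, 4 and 6 on the log2 scale were found. The values of 1 cell marker are not reported here.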

Additional observations from a re-analysis of the deposited data

Results flagged for a closer look

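For 4 initiation factor genes both Tcf7-KO libraries lay on one side of both Ctrl libraries in PP and on the other side in LP. That is 8.51% of the 47, against 6.34% of all 10541 genes tested. Eif4ebp2 had a genotype log2 fold change of 2.72 in PP and -4.47 in LP, Eif3j2 of 0.78 and -1.46, Eif4e3 of 0.34 and -1.24, and Eif5a of -0.41 and 0.43. The test of the difference passed for none of them (limma, adjusted p = 0.424, 0.717, 0.762 and 0.603). In PP the Ctrl and Tcf7-KO values of Eif4ebp2 were separated by 0.0883 against 0.111 RPKM, both close to 0. Of the coding windows of Eif3j2, 98.9% also occur in other transcripts, mostly in that of Eif3j1.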

How the results depend on the processing

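Of 653 values from 37 results of named initiation factor genes, taken across 18 alternatives, 0 reversed and 4 changed their side of the threshold. Since many of these genes were picked for not overlapping and nearly all did not pass, this says little about stability. The 4 were the lost calls of Eif1 over both genotypes given above (without trend, 0 genes of the set passed) and its call in Tcf7-KO with median-of-ratios scaling (1.62, limma, adjusted p = 0.0365, 1 gene passing). Outside the 37 results, Eif1ad and Eif1ax (tissue in Ctrl) and Eif3k (average tissue) also crossed the threshold when a Ctrl PP library was left out. The replicate SD of the set's median log2 level was 0.08, which is not the error of a median fold change. Several of the set's median log2 fold changes moved by more than that under some alternatives. With median-of-ratios scaling they were -0.35 and 0.16 for genotype in PP and LP, -0.01 and 0.41 for tissue in Ctrl and Tcf7-KO, 0.29 for the interaction and -0.31 for the average genotype effect. With the total taken without immunoglobulin and mitochondrial genes they were 0.22 for genotype in PP, 0.48 for tissue in Ctrl, -0.58 for the interaction and 0.34 for the average tissue effect. A pseudocount of 0.1 gave 0.45 for average tissue, and of 5 gave -0.08 for the interaction.

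Leaving out each library in turn gave medians of -0.07 to 0.45 for genotype in PP, -0.18 to 0.11 for genotype in LP, 0.15 to 0.47 for tissue in Ctrl, -0.22 to 0.03 for tissue in Tcf7-KO, -0.57 to 0.03 for the interaction, -0.10 to 0.02 for average genotype and 0.17 to 0.44 for average tissue. Genes of the set passing then ranged from 0 to 1 for tissue in Ctrl (Eif1ad without Ctrl PP replicate 1 and Eif1ax without replicate 2, in each case leaving the lone Ctrl PP library in which that gene was under 1 RPKM) and from 0 to 2 for average tissue (0 without either Ctrl LP library, 2 without Ctrl PP replicate 2). Over all genes, the number passing ranged over the alternatives from 0 to 138 for genotype in PP, 0 to 49 in LP, 0 to 251 and 0 to 230 for tissue in Ctrl and Tcf7-KO, 0 to 101 for the interaction, 0 to 4 for average genotype and 225 to 560 for average tissue.

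Deviations of same-numbered libraries correlated between groups at -0.0214 to 0.0103. The labels do not say whether replicate numbers pair the libraries. This correlation cannot decide it, because split pairs (7.84% to 22.8% of all genes tested) add noise that could hide a pairing. With a replicate block 1 gene of the set, Eif1, passed for average tissue and 0 in the other comparisons. Of the related genes, Ddit3 over both genotypes and Ppp1r15a in Tcf7-KO lost their calls (adjusted p = 0.0549 and 0.0869). The count over all genes went from 38 to 16 for genotype in PP, 224 to 99 for tissue in Ctrl and 211 to 74 for tissue in Tcf7-KO. Fits on only the groups compared give no value for the interaction and average effects. With 2 libraries per group, a 2-fold change in a single comparison was seldom found in simulated data (2% for genotype in PP, 0% in LP).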
